A study of Mus musculus with 186 samples.

Results

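The comparison was between mice with 1 disrupted copy of Akap11 (labelled Akap11 +/-, here HET) and wild-type mice (WT) in hippocampus, thalamus and substantia nigra at 12 weeks of age. Members were taken by their labels alone: 15 HET and 15 WT libraries, 5 of each genotype per region, or 30 of the 186 libraries of the series. The study measured bulk RNA in 6 dissected brain regions at 4 and 12 weeks in these genotypes and in mice with both copies disrupted (labelled Akap11 -/-, here KO), as a mouse model for psychiatric genetics. Also used here are the 15 KO libraries of these regions at 12 weeks, the 34 HET and WT libraries of these regions at 4 weeks, and the 30 HET and WT libraries of prefrontal cortex, somatosensory cortex and striatum at 12 weeks. The labels give the genotype, tissue and age of each library but not the disrupted exon, the strain, the sex or the animal it came from, so p-values measure only the spread between libraries, which may be technical.

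AKAP11 is an A-kinase anchoring protein. It holds the regulatory subunits of protein kinase A (PKA), the cAMP-activated kinase, and also binds GSK3 and protein phosphatase 1. It acts as an autophagy receptor as well, carrying the PKA regulatory subunit RI-alpha, the product of Prkar1a, to degradation through the ATG8-family proteins. Loss of 1 copy is the dosage found in people who carry AKAP11 truncating variants, a strong genetic risk factor for bipolar disorder and schizophrenia.

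Akap11 itself fell in all 3 regions. The gene lies on chromosome 14 at 78492246 to 78536808 (GRCm38, minus strand, protein coding). In hippocampus the level was 293, 310, 243, 269 and 288 CPM (counts scaled to a common library size) in the 5 WT libraries and 154, 151, 144, 139 and 136 CPM in the 5 HET libraries. In thalamus it was 217, 218, 187, 194 and 174 CPM in WT and 111, 136, 125, 105 and 102 CPM in HET. In substantia nigra it was 251, 221, 208, 204 and 201 CPM in WT and 104, 99.3, 129, 132 and 115 CPM in HET. The highest HET library lay below the lowest WT library in each region, and of the 14974 genes tested in each region alone, only Akap11 had separate HET and WT ranges in all 3. In KO libraries the level was between 12.4 and 25.9 CPM.

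In a single edgeR quasi-likelihood fit of the 30 libraries with region as a term, HET Akap11 was 54.6% of WT (95% interval 50.7 to 58.8%), a log2 fold change of -0.87 ± 0.05 (SE) with adjusted p = 1.43e-12. KO Akap11 was 7.78% of WT (7.09 to 8.52%). Taken alone, HET hippocampus was at 51.7% of WT (46.8 to 57.1%, edgeR adjusted p = 6.9e-05), thalamus at 58.4% (50.8 to 67%, adjusted p = 0.0354) and substantia nigra at 53.3% (46.7 to 60.8%, adjusted p = 0.00202). The 3 percentages did not differ beyond their spread (edgeR test among regions, unadjusted p = 0.299). For thalamus, leaving out 1 of its 10 libraries at a time kept the log2 fold change between -0.85 and -0.73, but the edgeR adjusted p was under 0.05 in only 2 of the 10 fits, those without HET replicate 2 (0.0147) or without WT replicate 5 (0.0436), and reached 0.182 in the others.

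**Figure D1:**
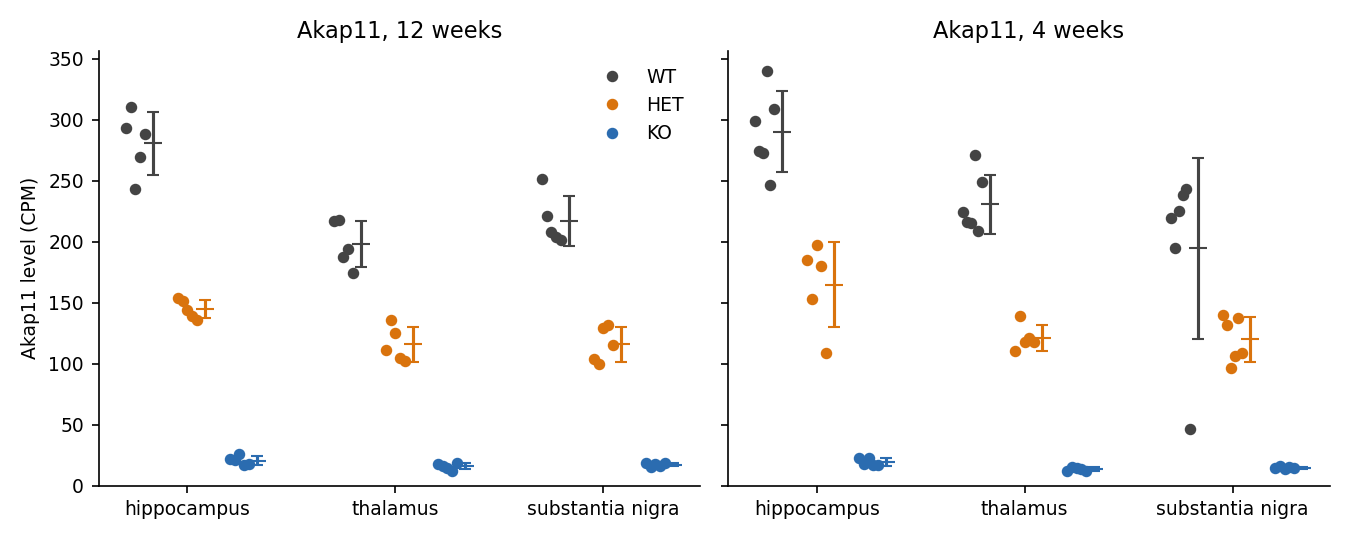
Akap11 level in CPM (y axis, from 0) in every library of hippocampus, thalamus and substantia nigra by genotype at 12 weeks (left) and 4 weeks (right), with the mean and SD of each group beside its points. At 12 weeks the HET libraries sit between 99.3 and 154 CPM and below every WT library of their region; at 4 weeks 1 nigral library labelled WT sits at 46.7 CPM.

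The 30 libraries were deep and carried the markers of their labelled regions. Totals ranged from 36.7 to 69.2 M expected counts, and the 10 most abundant genes took 3.64 to 6.71% of a library. The summed level of 12 hippocampal neuron markers was 1198 to 1910 CPM in hippocampus against at most 262 CPM elsewhere. The 11 thalamic neuron markers summed to 6569 to 8950 CPM in thalamus against at most 1173 CPM, and the 11 dopamine neuron markers to 4151 to 6712 CPM in substantia nigra against at most 270.2 CPM. None of these markers was at 0 throughout its own region. In 60 pairs of same-group libraries the counts differed by a chi-square of at least 13.4 for each degree of freedom, so all were kept as separate samples. At 4 weeks the nigral library labelled WT with the number 92 had 46.7 CPM of Akap11, which goes against its label. Its summed level of hypothalamic markers was 737 CPM against at most 42.6 CPM in the other 16 nigral libraries. Some 4-week values, but not the DESeq2 calls, are therefore also given without it. Those 16 libraries varied widely too, so the 4-week nigral set was uneven beyond number 92. Their sums were 199 to 5950 CPM for dopamine neuron, 0.373 to 264 CPM for serotonin neuron and 41.3 to 2890 CPM for meningeal fibroblast markers. In bulk tissue, fewer cells of a type and less RNA per cell cannot be told apart.

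Beyond Akap11 no gene was called in the 3 regions together. Of 17179 genes tested, 1 passed an edgeR adjusted p of 0.05 (0.00582% of those tested), and the next smallest adjusted p was 0.929. An unadjusted p under 0.05 was reached by 845 genes (4.92%), of which 465 (2.71%) were higher in HET and 380 (2.21%) lower. That number moved to 1304 without the thalamic HET library numbered 2. Without a numbered replicate of one genotype in every region it was 1448 (HET replicate 2), 1353 (WT replicate 5), 548 (WT replicate 1) and 545 (HET replicate 5) at its extremes. DESeq2 with the same region term also called only Akap11. The fit was narrow enough to bound most expressed genes: for the 13183 genes with an average level of at least 1 on the log2 CPM scale, the median half-width of the 95% interval was 0.11 (log2). The whole interval lay within 0.25 of no change for 79.6% of them, within 0.5 for 96% and within 1 for 99.5%. These intervals take the 30 libraries as separate samples. The labels do not give the animal, and the intervals may be too narrow if same-numbered libraries of different regions share one. With same-numbered libraries allowed to correlate (limma-voom, consensus correlation 0.0645), Akap11 was the only call, as with counts summed per numbered replicate.

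**Figure D2:**
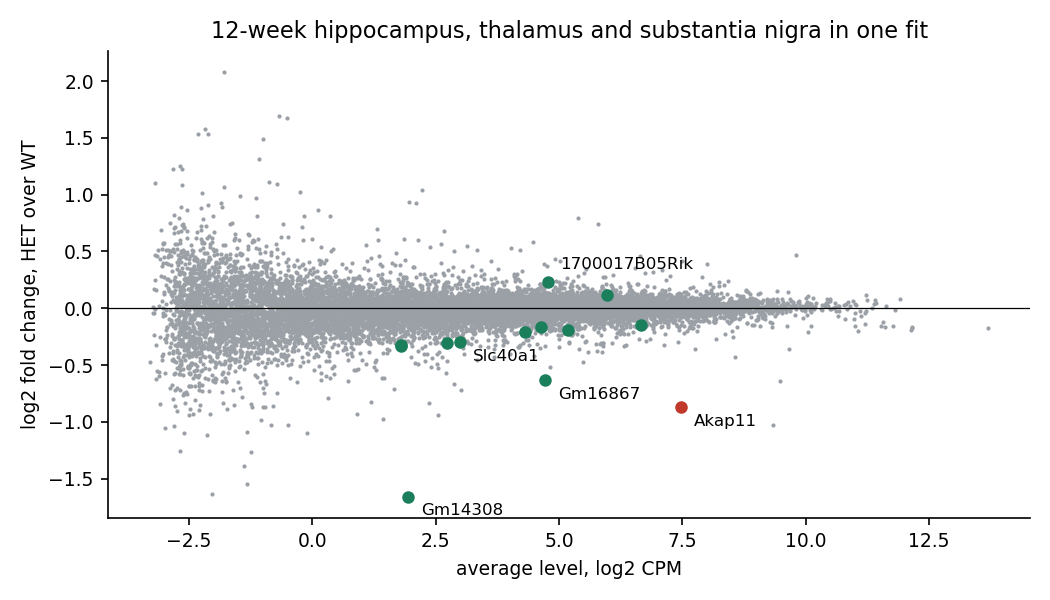
Log2 fold change of HET over WT (y axis) against average level in log2 CPM (x axis) for the 17179 genes tested in the 3 regions together. Grey points are single genes, the red point is Akap11 at -0.87, and green points are the 12 genes with the next smallest p among those with an average of at least 1, none of which was called.

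The 12 genes with the smallest p after Akap11, among those with an average log2 CPM of at least 1, are given as values, since none passed the adjusted test. The first was 1700017B05Rik, an uncharacterised protein-coding gene on chromosome 9, at 118% of WT (109 to 127%, edgeR unadjusted p = 0.000215, adjusted p = 0.929). In hippocampus its 5 WT libraries lay between 19.1 and 25.6 CPM and its 5 HET libraries between 26.7 and 32.8 CPM, without overlap, while in thalamus (31.7 to 41.9 against 39.4 to 53.6 CPM) and substantia nigra (12.6 to 15.5 against 14.1 to 16.8 CPM) the genotypes overlapped. Its 4-week estimate had the opposite sign, -0.17 ± 0.12 (log2, SE). The lncRNA Pantr1, transcribed beside the neural transcription factor gene Pou3f3, stood at 86.4% of WT (80.3 to 93%), with 34.1 to 40.1 CPM in HET hippocampus against 37.6 to 50.4 CPM in WT.

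Slc40a1 and Slc39a8, which encode the iron exporter ferroportin and a zinc, manganese and iron importer, stood at 81.4% (73.3 to 90.4%) and 79.7% (70 to 90.8%) of WT. Both differences were widest in thalamus, where Slc40a1 was 7.68, 8.35, 8.48, 8.98 and 9.99 CPM in WT and 4.94, 5.4, 5.49, 6.58 and 6.67 CPM in HET. The thalamic genotypes did not overlap for Slc40a1, and in hippocampus they did (4.99 to 8.57 CPM in WT, 5.9 to 6.75 CPM in HET). In KO thalamus Slc40a1 ranged from 5.39 to 8.52 CPM. The edgeR test among regions gave unadjusted p-values of 0.0284 for Slc40a1 and 0.337 for Slc39a8 and called neither.

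Of the other genes, Hmcn1, which encodes the matrix protein hemicentin, was at 79.5% of WT, and Cyyr1, a membrane protein gene, at 81%. The lipase gene Abhd2 stood at 90.1%, Itpr2, an IP3 receptor calcium channel, at 88.9%, and Fkbp9, an endoplasmic reticulum prolyl isomerase, at 87.8%. Arsa, the lysosomal arylsulfatase A, stood at 108% (104 to 113%). Cyyr1, Itpr2, Fkbp9 and Hmcn1 had their lowest estimates in thalamus too, at -0.51 ± 0.15, -0.30 ± 0.10, -0.37 ± 0.08 and -0.42 ± 0.14 (log2, SE). The edgeR test among regions gave them unadjusted p-values of 0.293, 0.2, 0.056 and 0.674 and called none. For Hmcn1 the thalamic effect differed from the hippocampal by only -0.02 (log2). At 4 weeks the same genes were estimated at -0.01 ± 0.13, 0.03 ± 0.09, 0.01 ± 0.10 and -0.11 ± 0.19, and without the nigral library labelled WT 92 at -0.07 ± 0.10, -0.02 ± 0.06, 0.05 ± 0.10 and -0.20 ± 0.11. Gm14308, a zinc finger gene of a family with near-identical copies on chromosome 2, was estimated at -1.66 ± 0.47 (log2, SE). In it 4 WT libraries stood at 6.06 to 27.7 CPM, and the other 11 WT libraries and all 15 HET libraries lay between 0.292 and 2.8 CPM. High libraries were not confined to WT. The highest 12-week KO library was at 19.5 CPM in thalamus and 16.8 CPM in substantia nigra. The highest 4-week HET library was at 10.3 CPM in hippocampus, 9.76 CPM in thalamus and 12.4 CPM in substantia nigra. Gm16867, the remaining gene, is described with the rest of chromosome 14.

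No PKA subunit or partner of AKAP11 was called in HET, and their intervals were narrow. Of the 22 genes of this list, 9 were estimated higher and 13 lower, 0 were called and 0 had an unadjusted p under 0.05, against 4.92% of all genes tested; their median was -0.01 (log2) and that of all genes 0.00145. The 95% intervals of all 22, with the libraries taken as separate samples, lay between -0.23 and 0.13. Among the catalytic subunits, Prkaca was at 0.02 ± 0.03 and Prkacb at -0.01 ± 0.06 (log2, SE). The regulatory subunits Prkar1b, Prkar2a and Prkar2b were at 0.000545, -0.04 and -0.09, and the PKA inhibitors Pkia, Pkib and Pkig at -0.03, -0.04 and -0.07. The kinase genes Gsk3a and Gsk3b were at 0.02 and -0.02, and the ATG8-family genes Map1lc3a, Map1lc3b, Gabarap, Gabarapl1 and Gabarapl2 between -0.06 and 0.03. In thalamus alone the 22 estimates ran from -0.275 to 0.138. There 2 higher and 1 lower had an unadjusted p under 0.05 (13.6%, against 7.6% of all genes), and none was called. In hippocampus alone and in substantia nigra alone 0 of the 22 had such a p.

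Prkar1a, the RI-alpha subunit gene, was the 1 member called in KO. In hippocampus it measured 552 to 628 CPM in WT, 572 to 640 CPM in HET and 526 to 572 CPM in KO. In thalamus it measured 593 to 658 CPM in WT, 630 to 696 CPM in HET and 520 to 590 CPM in KO, and in substantia nigra 811 to 891, 724 to 853 and 732 to 754 CPM. HET libraries overlapped WT libraries in each region, while in thalamus and substantia nigra every KO library was below every WT library. Together, HET was at 101% of WT (96.2 to 105%), a log2 fold change of 0.01 ± 0.03 (SE, edgeR adjusted p = 0.989), whereas KO was at 89.5% (86.3 to 92.8%, adjusted p = 0.00437). With 1 library left out at a time, the HET estimate of a region alone was -0.003 to 0.05 for hippocampus and 0.06 to 0.10 for thalamus (log2). For substantia nigra it was -0.11 to -0.06. The edgeR test among regions gave Prkar1a an unadjusted p of 0.0373 and did not call it. HET and KO share the same WT libraries, so the 2 genotypes were also compared directly, a comparison added after seeing the data: Prkar1a in KO was at 89.1% of HET (85.5 to 92.9%, edgeR adjusted p = 0.0202), 1 of 3 genes called of 17131 (0.0175%). Leaving out any 1 numbered replicate of one genotype kept that difference between -0.18 and -0.16 (log2), but it passed the adjusted threshold in only 2 of those 10 fits; the KO change from WT passed in 9 of 10, and not without the KO libraries numbered 4 (edgeR adjusted p = 0.0599).

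**Figure D3:**
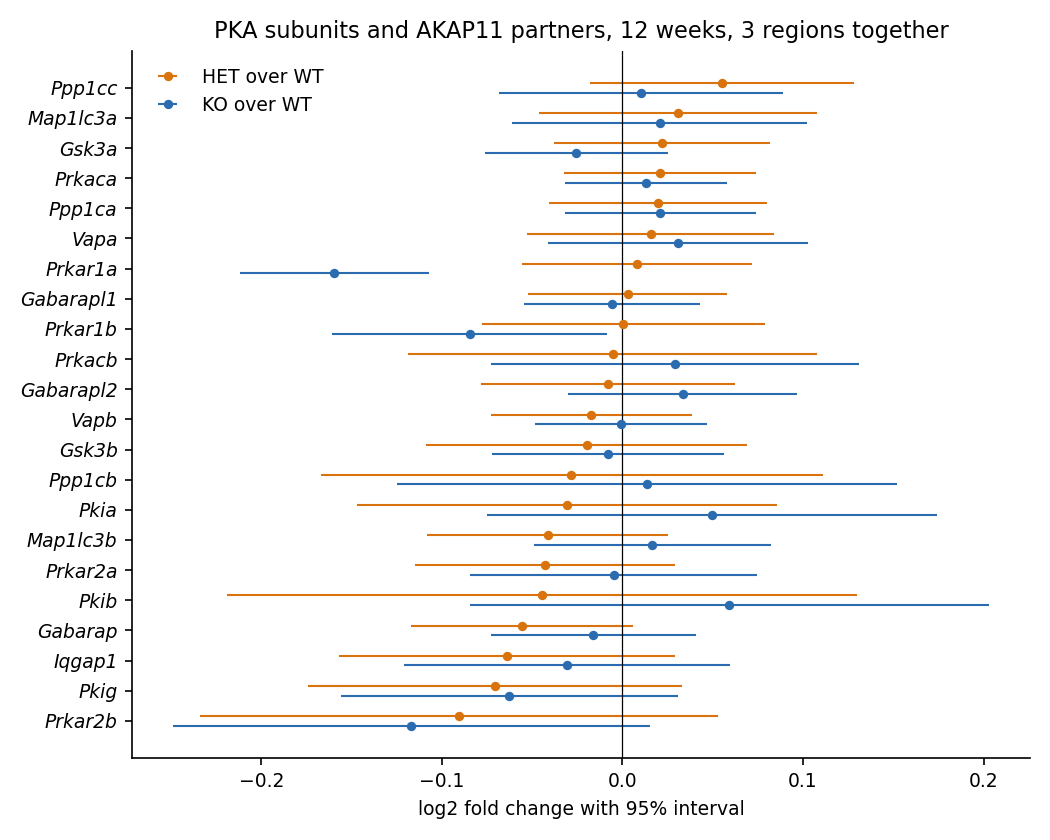
Log2 fold change with 95% interval (x axis) of the 22 PKA subunit and AKAP11 partner genes in HET (orange) and KO (blue) over the same WT libraries, 3 regions together at 12 weeks. All HET intervals include 0; the KO intervals of Prkar1a and Prkar1b lie below 0, and only Prkar1a was called.

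In KO, 6 of 17164 genes (0.035%) were called in the same regions, and 1164 (6.78%) had an unadjusted p under 0.05. Besides Akap11 and Prkar1a the called genes were Gm21685, Gm27221, Tunar and AC087559.2. Tunar, annotated as protein coding, rose in KO (0.29 ± 0.06, log2, SE, edgeR adjusted p = 0.0304), and its HET value was 0.20 ± 0.08 (adjusted p = 0.929).

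In edgeR the other lists held no called gene in HET, in the 3 regions together or in any region alone. Over all genes in the 3 regions together, 4.92% had an unadjusted p under 0.05 and 50.9% were estimated higher. The lists named here with 1 such member had 4.17 to 7.14% of their genes at that p, near the share over all genes. In the 3 regions together, other A-kinase anchoring proteins split evenly, 8 higher and 8 lower of 16, with Akap2 at 0.17 ± 0.08 (log2, SE) as the 1 member with an unadjusted p under 0.05. Of 25 cAMP enzymes and effectors 3 had such a p, all lower: the adenylyl cyclase gene Adcy2 at -0.16 ± 0.06 and the phosphodiesterase genes Pde2a at -0.15 ± 0.07 and Pde1c at -0.20 ± 0.09. Among 20 activity-regulated early genes, which neurons switch on within minutes of firing, only Egr2 did, at -0.79 ± 0.35. Of 24 autophagy and lysosome genes 1 did, the autophagy membrane protein gene Atg9a at 0.07 ± 0.03, and the cargo receptors and cathepsins of that list did not. Of 17 synaptic vesicle genes 13 were higher and 3 had such a p: Syp at 0.07, Syn1 at 0.08 and Rab3a at 0.07. Of 17 postsynaptic density genes 1 did (Camk2b, 0.09), and of 14 chaperone genes 1 did (the heat shock gene Hspa1a, 0.15). None of 20 oxidative phosphorylation genes (5 higher), 18 ribosomal protein genes (2 higher) or 16 sterol synthesis genes (4 higher) did.

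The marker lists of neurons, over the 3 regions together, had 3 of 12 members estimated higher in HET for hippocampal neurons, 9 of 11 for thalamic, 4 of 11 for dopamine, 4 of 9 for cortical excitatory, 2 of 7 for striatal and 1 of 7 for inhibitory neurons. For habenula it was 0 of 5, and 0 of the 2 hypothalamic and 0 of the 1 serotonin neuron markers that passed the filter. Among other cells, 1 of 10 myelin and oligodendrocyte genes, 4 of 5 oligodendrocyte precursor genes, 2 of 8 astrocyte genes and 0 of 10 microglial genes were estimated higher. The count was 1 of 9 for endothelial and mural genes, 2 of 8 for choroid plexus, 0 of 5 for ependymal cells, 2 of 6 for meningeal fibroblasts and 5 of 5 for blood. No marker was called, and over all genes 50.9% were estimated higher.

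Each region alone also gave Akap11 as its single call. Hippocampus had 1 of 16125 genes (0.0062%), thalamus 1 of 15387 (0.0065%) and substantia nigra 1 of 16223 (0.00616%). An unadjusted p under 0.05 was found for 356 hippocampal genes (2.21%), 384 nigral genes (2.37%) and 1170 thalamic genes (7.6%), of which 485 (3.15%) were higher and 685 (4.45%) lower. These counts moved with single libraries: the thalamic count was 657 without HET replicate 3, the hippocampal count 600 without HET replicate 2 and 677 without WT replicate 5, and the nigral count 237, 593 and 624 without HET replicates 2, 3 and 5 in turn. Genotypes did not overlap for 63 hippocampal genes (0.391%), 203 thalamic genes (1.32%) and 68 nigral genes (0.419%). Taken alone, hippocampus had a median interval half-width of 0.17, thalamus 0.20 and substantia nigra 0.17 (log2).

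In thalamus DESeq2 called 19 genes, Akap11 included. Of the 18 others, 7 were estimated higher in HET: the splicing regulator gene Rbfox1, the laminin gene Lamb1, the endocytosis gene Snap91, the netrin receptor gene Unc5c, the calcineurin gene Ppp3ca, Fam84a and the 14-3-3 gene Ywhaz. The 11 estimated lower were C130074G19Rik, Prom1, Slc40a1, Tmem44, the inositol kinase gene Itpkb, the ribosomal gene Rpl10, Lsr, 9430020K01Rik, Fkbp9, the endothelial receptor gene Tie1 and the astrocyte gene Aldh1l1. Rbfox1 measured 205 to 211 CPM in WT and 225 to 260 CPM in HET, and Itpkb 80.9 to 89.3 CPM in WT and 63.4 to 75.7 CPM in HET, both without overlap. In edgeR each of the 18 had an adjusted p of 0.579, so their call depended on the tool.

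Several lists had most of their members on one side in thalamus, without a member called by edgeR; of their genes, DESeq2 called the astrocyte gene Aldh1l1 (adjusted p = 0.0496). All 18 cytosolic ribosomal protein genes were estimated lower in HET thalamus, 15 with an unadjusted p under 0.05 (4.45% of all genes in that direction), with a median of -0.18 (log2) against 0.00132 over all genes. Their summed level was 2808 to 3175 CPM in WT and 2395 to 3012 CPM in HET, and 4 of the 5 HET libraries lay below all WT libraries. Rpl32 was 91.2 to 102 CPM in WT and 74.5 to 90.1 CPM in HET (-0.26 ± 0.06, edgeR adjusted p = 0.579), and Rps24 was 164 to 196 against 137 to 172 CPM. These genes have many near-identical pseudogene copies, which makes their counts uncertain. In hippocampus the same list split 9 and 9, and in substantia nigra all 18 were estimated higher, with a median of 0.07 and 0 at an unadjusted p under 0.05; without the nigral HET library numbered 5 it was 17 of 18, with a median of 0.12 and 7 such p-values. At 4 weeks all 18 were estimated lower over the 3 regions, with a median of -0.10, but 17 of 18 higher, with a median of 0.06, without the nigral library labelled WT 92, in both fits with 0 such p-values. The test among regions gave 4 of the 18 an unadjusted p under 0.05 and called none.

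Genes of vessels and microglia were estimated lower in the same thalamic libraries, again with none called. All 9 endothelial and mural genes were estimated lower, 5 with an unadjusted p under 0.05 (4.45% of all genes in that direction), with a median of -0.28. Their sum was 272 to 306 CPM in WT and 221 to 263 CPM in HET, without overlap. Taken singly, 1 of the 9 genes did not overlap, against 1.32% of all thalamic genes. The VEGF receptor gene Flt1 was at -0.42 ± 0.12, the transporter gene Slco1a4 at -0.30 ± 0.07 and the pericyte gene Rgs5 at -0.25 ± 0.07 (log2, SE, edgeR adjusted p = 0.579 for each). All 10 microglial genes were estimated lower too, 4 with such a p, with a median of -0.15. In hippocampus 4 of 9 endothelial and mural and 6 of 10 microglial genes were estimated higher, and in substantia nigra 4 of 9 and 4 of 10. In HET thalamus the thalamic neuron genes lay mostly the other way, 9 of 11 higher and 5 with such a p (3.15% of all genes in that direction). They include Rora, an orphan nuclear receptor gene, at 0.26 ± 0.07, Plekhg1 at 0.27 ± 0.07 and Prkcd, a protein kinase C gene, at 0.35 ± 0.12. The other 2 of the 11 were estimated lower, the furthest at -0.71. The summed thalamic neuron level was 6569 to 7328 CPM in WT and 6805 to 8950 CPM in HET.

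All 16 sterol synthesis genes were estimated lower as well, with a median of -0.13, 1 of them with such a p, and 13 of 17 synaptic vesicle genes higher, with a median of 0.10 and 3 such p-values. Of the other marker lists in thalamus, those estimated mostly lower were myelin and oligodendrocytes (9 of 10), astrocytes (6 of 8), meningeal fibroblasts (6 of 6), hippocampal (6 of 8), dopamine (5 of 6), striatal (5 of 7) and inhibitory neurons (5 of 6, median -0.87), and habenula (3 of 3, median -1.71, 2 with such a p). Cortical excitatory (4 of 5) and blood genes (4 of 4) were estimated mostly higher.

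Inhibitory neuron and habenula markers varied widely within both genotypes in thalamus. The inhibitory neuron sum over 7 genes was 59.4 to 1213 CPM in WT thalamus and 70.5 to 772 CPM in HET thalamus, and the habenula sum 3.02 to 28.6 CPM in WT and 2.51 to 8.15 CPM in HET. None of the markers in either list was at 0 in all of these libraries. With the inhibitory level as a covariate, a fit added after seeing the data, the 18 ribosomal protein genes were all estimated lower. Their median was -0.19, with 13 at an unadjusted p under 0.05. The median inhibitory sum was close in the genotypes (199.2 CPM in WT, 202.8 CPM in HET), so this fit is no test of its part in the thalamic values. In that fit the log2 fold change of Akap11 was -0.765, against -0.777 without the covariate, its adjusted p was 0.113, edgeR called no gene and 1042 had an unadjusted p under 0.05. In hippocampus, choroid plexus markers ranged from 665 to 3834 CPM in WT and 393 to 2818 CPM in HET. Their part in the hippocampal values was not tested.

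**Figure D4:**
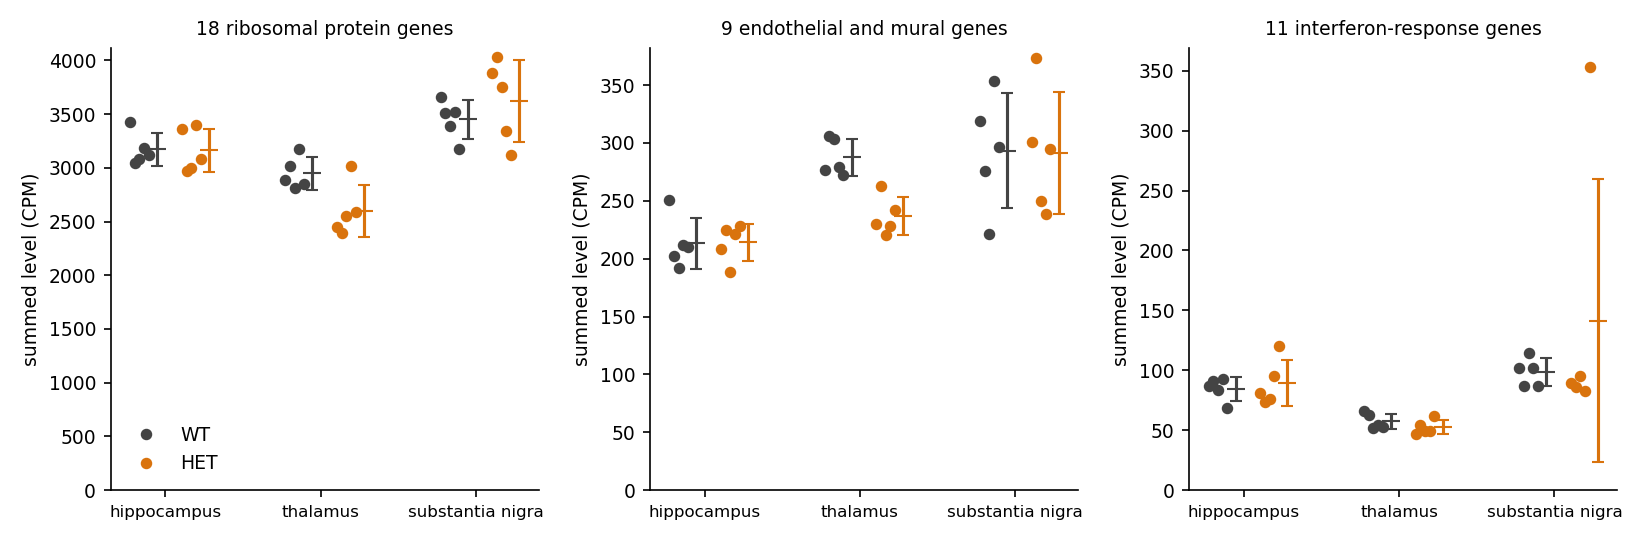
Summed level in CPM (y axes, from 0) of 18 ribosomal protein, 9 endothelial and mural and 11 interferon-response genes in each 12-week library by region, WT in grey and HET in orange, with the mean and SD of 5 libraries beside the points. The HET thalamic sums of endothelial and mural genes lie below all WT thalamic sums, and 1 HET nigral library stands at 353 CPM for the interferon-response genes.

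Interferon-response genes, which cells induce on sensing viral nucleic acid or interferon, had the most shifted median of the 12 pathway lists in the 3 regions together. Of 11 genes 10 were estimated higher (50.9% over all genes), with a median of 0.42 (log2). An unadjusted p under 0.05 was reached by 1 (4.92% over all genes), Usp18 at 0.81 ± 0.37 (SE), and none of the 11 was called. Their summed level was 83.1, 86, 89.3, 95.6 and 353 CPM in HET substantia nigra and 86.7 to 115 CPM in WT. In hippocampus it was 73.8 to 121 CPM in HET and 68.3 to 92.6 CPM in WT, and in thalamus 46.7 to 61.8 and 51.7 to 66 CPM. In each of the 3 regions the highest HET library was the one numbered 5, and only in substantia nigra did it stand far from the rest. Without that nigral library the median was 0.02, with 6 of 11 higher, and without the HET libraries numbered 5 in every region it was -0.12, with 0 of 11 higher.

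The test among the 3 regions called no gene (0 of 17179, 0%), and 816 (4.75%) had an unadjusted p under 0.05. DESeq2 called 1 gene, Rgs2, a regulator of G protein signalling (edgeR adjusted p = 0.339), estimated at -0.18 ± 0.06 (log2, SE) for hippocampus, 0.29 ± 0.08 for thalamus and -0.07 ± 0.05 for nigra. Against prefrontal cortex, somatosensory cortex and striatum at 12 weeks, the mean HET effect of the 3 regions differed for 0 of 17616 genes (0%) by edgeR, with 458 (2.6%) at an unadjusted p under 0.05. limma-voom, the other tool run for that test, also called 0. The Akap11 reduction differed between the 2 sets of regions by 0.05 ± 0.07 (log2, SE, edgeR unadjusted p = 0.526).

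On chromosome 14 none of the genes near Akap11 was called. Of 13 genes tested within 1 Mb, 6 were estimated higher (50.9% over all genes). Of the 13, 0 were called and 0 had an unadjusted p under 0.05 (4.92% over all genes). The nearest tested on either side, Dgkh, a diacylglycerol kinase gene, and Fam216b, were at 0.05 ± 0.12 and -0.14 ± 0.35 (log2, SE).

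A second stretch of chromosome 14, examined after its values were seen, gave another pattern. Gm16867 (69363504 to 69503362, GRCm38, minus strand, protein coding) and Gm21685, a synonym of Entpd4b (69555401 to 69584940), belong to a cluster of near-identical copies of the nucleotidase gene Entpd4, so their counts are uncertain. Gm16867 in hippocampus was 16.1, 15.6, 16.2, 15.4 and 7.43 CPM in WT libraries 1 to 5 and 8.02, 6.37, 6.66, 8.07 and 16.3 CPM in HET libraries 1 to 5. In KO libraries 1 to 5 it was 0.0192, 0, 0, 0 and 7.59 CPM. In all 3 regions WT libraries 1 to 4 were high, HET libraries 1 to 4 intermediate and KO libraries 1 to 4 at or next to 0, whereas the libraries numbered 5 did not follow their genotype.

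As a share of the WT median of the region, the WT libraries numbered 5 were at 47.7% for hippocampus, 46.6% for thalamus and 50.9% for substantia nigra. The HET libraries numbered 5 were at 104, 102 and 94.3%, and the KO libraries numbered 5 at 48.7, 53.7 and 60.4%. Akap11 in the same libraries followed the labels, with 136, 102 and 115 CPM in the HET libraries numbered 5. Over all 30 libraries Gm16867 was at 64.6% of WT (51.4 to 81.2%, edgeR adjusted p = 0.929). The estimate was -0.88 (log2) without the HET libraries numbered 5, -0.79 without the WT libraries numbered 5 and -1.05 without both. These are given with no test because those libraries were chosen on these values. Leaving out any other numbered replicate of one genotype in every region gave -0.615 to -0.545, with an edgeR adjusted p of at least 0.492. The labels do not say whether a number marks an animal, and this was not tested. Over expressed genes, libraries of one genotype and number correlated between regions at a mean r of 0.0544 in their deviations from group means (-0.169 to 0.233). For libraries of one genotype and other numbers the mean r was -0.0135 (-0.237 to 0.204). With the counts of the 3 regions summed per numbered replicate Gm16867 was at -0.60 (edgeR unadjusted p = 0.0437, adjusted p = 0.999). Estimates for this cluster therefore mix libraries of unequal level within each genotype.

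Gm21685 had the same order in a smaller range: 85.6% of WT over all libraries (77.1 to 95%, edgeR adjusted p = 0.929), and -0.41 (log2) without the libraries numbered 5 of both genotypes, given with no test for the same reason. With the counts summed per numbered replicate it was at -0.25 (edgeR unadjusted p = 0.048, adjusted p = 0.999). At 4 weeks the Gm16867 level was uneven within genotypes as well, for example 7.74 to 20.1 CPM in WT hippocampus, 7.94 to 28 CPM in HET and 0.0529 to 15.5 CPM in KO. Of 17 genes tested between 69 and 70 Mb, 4 were estimated higher in HET (50.9% over all genes). An unadjusted p under 0.05 was reached by 3 (4.92% over all genes), and none was called with all libraries in the fit. Gm16867 and Gm21685, on whose values the stretch was chosen, are among the 3, so that count is no test of it.

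**Figure D5:**
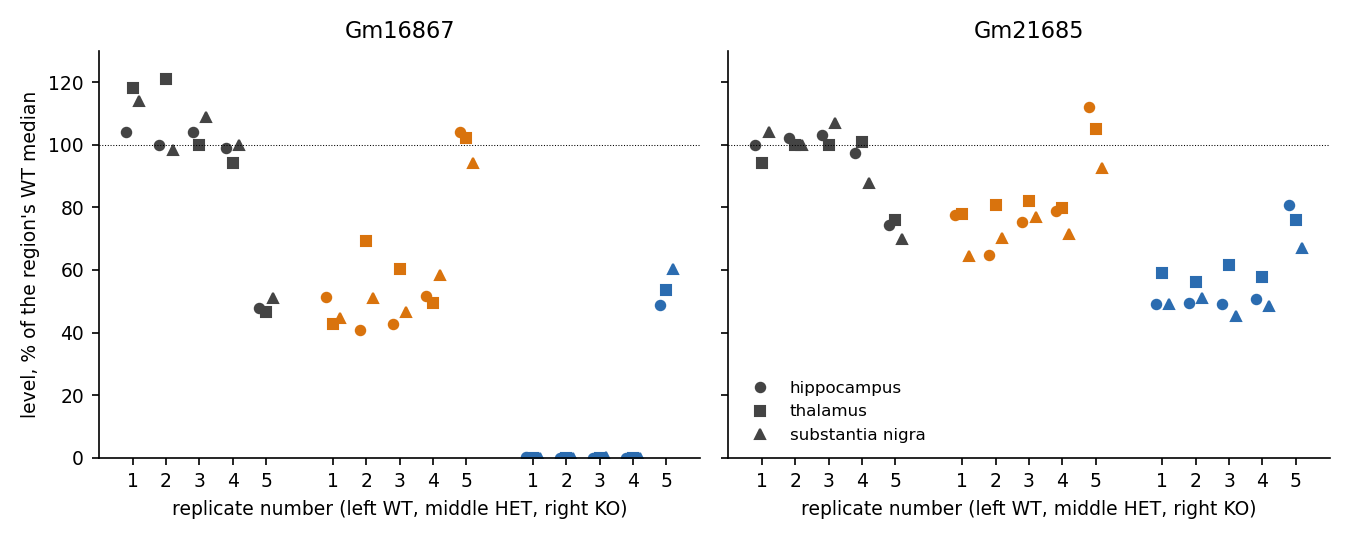
Level of Gm16867 (left) and Gm21685 (right) in each 12-week library as a percentage of the WT median of its region (y axis), by genotype and replicate number (x axis), with a symbol for each region. In both genes the libraries numbered 5 stand apart from the others of their genotype in all 3 regions.

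At 4 weeks the same comparison again called Akap11 alone, 1 of 16923 genes (0.00591%), with 741 (4.38%) at an unadjusted p under 0.05. Without the nigral library labelled WT 92 the latter count was 861. Akap11 was at 57.2% of WT (47.7 to 68.6%, edgeR adjusted p = 0.0078). The nigral library labelled WT with the number 92 had 46.7 CPM of Akap11 against 195 to 243 CPM in the other 5 labelled WT, and without it the log2 fold change moved from -0.81 to -0.88 (adjusted p = 3.66e-10). DESeq2 called 9 genes at 4 weeks, among them the interneuron transcription factor genes Dlx1, Dlx2, Dlx6 and Sp8. In the edgeR fit of these libraries all 7 inhibitory neuron markers were estimated lower in HET, with a median of -0.82 (-0.90 without that library), 2 of them with an unadjusted p under 0.05; their part in those calls was not tested. Prkar1a in HET at 4 weeks was at 0.08 ± 0.07 (log2, SE, edgeR adjusted p = 0.951), and at 0.06 ± 0.06 without the nigral library labelled WT 92.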

How the data were processed

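RNA was prepared from cryostat-dissected frozen tissue and sequenced from TruSeq Stranded mRNA libraries, per the labels' protocols. The authors deposited expected counts per gene symbol (28338 symbols), and the submitters' processing notes name Salmon and mm10, without a role. No source used here states whether counting used the strand, so overlapping, antisense and near-identical genes are uncertain.

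Counts were rounded and fitted with edgeR 4.0.16 in R 4.3.3: TMM scaling, filterByExpr by region and genotype, quasi-likelihood tests, region as a term, Benjamini-Hochberg adjustment over all genes, calls at an adjusted p under 0.05. CPM was scaled by TMM within region and age. SE is the log2 fold change over the root of F. The code was tested on simulated data. Positions are GENCODE M21, which held 95.5% of the symbols. Other tools were DESeq2 1.42.0, limma 3.58.1 and sva 3.50.0. Depth ranged from 36.7 to 69.2 M, so the spread between libraries rather than counting limits expressed genes.

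Named are Akap11, the 12 genes with the smallest p after it at an average log2 CPM of at least 1, all 22 PKA and AKAP11 partner genes, and up to 4 members of each other list; genes of chromosome 14, those called by DESeq2 or in KO, and thalamic list members were chosen after their values were seen. The members, the 12 gene lists and the 18 marker lists were chosen with earlier results of these data known.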

Additional observations from a re-analysis of the deposited data

Results flagged for a closer look

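In 114 groups of 5 libraries (19 quantities, each in 3 regions and both genotypes), 12 held a library far from the other 4 by Dixon's criterion; chance flags about 1 group in 20.

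Of these, 7 concern the Entpd4 cluster and libraries numbered 5. For Gm16867 the hippocampal WT library stood at 7.43 CPM against 15.4 to 16.2 in the others, and the hippocampal HET library at 16.3 against 6.37 to 8.07. The nigral WT library stood at 7.94 CPM against 15.3 to 17.8, and the nigral HET library at 14.7 against 7 to 9.09. For Gm21685 the WT library stood at 94.5 CPM in hippocampus against 124 to 131, and at 127 in thalamus against 158 to 169. The thalamic HET library stood at 176 CPM against 131 to 138.

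The interferon-response sum of the nigral HET library numbered 5 was 353 CPM against 83.1 to 95.6 in the others. The inhibitory neuron sum of the thalamic HET library numbered 1 was 772 CPM against 70.5 to 218. Hmcn1 stood at 1.99 CPM in the hippocampal HET library numbered 5 against 1.48 to 1.61. Abhd2 stood at 81.5 CPM in the thalamic HET library numbered 2 against 68.3 to 70. Gm14308 stood at 27.7 CPM in the nigral WT library numbered 2 against 1.52 to 2.38.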

How the results depend on the processing

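Akap11 was called in the 3 regions together under all 52 alternatives (RLE scaling, no filter, other tools, KO libraries in the fit, left-out libraries and others). Its log2 fold change was -0.93 to -0.83 and its adjusted p 3.68e-54 to 5.27e-05. The 12 genes of smallest p kept their sign in all 52. They were picked on these same libraries, which most alternatives reuse, so the kept sign is no test of them. The count of called genes in the 3 regions together was 1 to 3 when libraries were left out. It was 2 without HET replicate 5 and 2 without WT replicate 5 in every region (Gm16867 added). Without replicate 5 of both genotypes it was 3 (Gm16867 and Gm21685 added). The libraries numbered 5 stand apart in these genes, so the counts of 2 and 3 are no test of them.

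In thalamus the count was 19 with DESeq2, 0 with 1 surrogate variable, 0 with the inhibitory neuron covariate (762 and 1042 at an unadjusted p under 0.05), and 0 to 1 with a library left out. In hippocampus and in substantia nigra it was 1 with any library left out. The test among regions gave 1 with DESeq2. At 4 weeks the count was 9 with DESeq2 and 1 to 2 with a library left out. KO against WT gave 16 with DESeq2 and 2 to 7 with a replicate left out (3 without KO replicate 3, 2 without KO replicate 4). KO against HET gave 8 with DESeq2 and 1 to 5 with a replicate left out (5 without HET replicate 2, 1 without KO replicate 2 and 1 without KO replicate 4). The causes of these differences were not tested.

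With the replicate number as a block the count was 1 in the 3 regions together, 1 each in hippocampus and thalamus alone, 0 for substantia nigra (313 genes at an unadjusted p under 0.05; Akap11 -0.913 on the log2 scale, adjusted p = 0.167, against -0.909 without the block) and 12 for KO against WT. Same-numbered WT and HET libraries correlated weakly in their deviations (mean r 0.0995 for hippocampus, 0.142 for thalamus and 0.0537 for substantia nigra, each with negative pairs), so the numbers were not taken to pair the libraries. The covariate, the fit without replicate 5 of both genotypes and KO against HET were chosen after seeing the data.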
